A study of Rattus norvegicus with 13 samples.

Results

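The sarcomeric myosin isoforms of the rat left ventricle were read on 13 Affymetrix arrays through 7 genes, the heavy chains Myh6 and Myh7, the light chains Myl2, Myl3, Myl4 and Myl7, and the skeletal actin Acta1, a gene of the fetal heart that is often read beside them. Members were the probe sets (groups of short probes that read the 3′ end of 1 transcript) annotated with 1 of these symbols and no other, which gave 10 of the 31042 probe sets tested, and 7 of the 14217 genes with a probe set of their own. Myh6, Myh7 and Myl2 had 2 probe sets each and the other genes 1 each, and the brighter probe set stands for a gene unless the dimmer one is named. All hearts came from female Sprague Dawley rats that were pregnant. There were 4 Met-fed rats, whose drinking water held methionine at 9 g/L from day 1 to day 20 of gestation, 4 L-NAME rats, whose water held the nitric oxide synthase inhibitor L-NAME at 1 g/L over the same days, and 5 control rats with neither. Death was on day 20 or 21, with pentobarbital at 50 mg/kg in all groups. Age is not given in the labels, and no group carried a transgene. Each array is taken here as 1 rat. The methods describe control and Met-fed mothers in a late repeated pregnancy, with methionine given since their first one, while the labels give the days above and mention no earlier pregnancy. They do not describe rats fed L-NAME.

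Myosin heavy chains are the motors of the thick filament, and each carries an essential and a regulatory light chain at its neck. Myh6 encodes the fast alpha chain that dominates the adult rat ventricle, and Myh7 encodes the slow beta chain of the fetal ventricle, which returns in the adult rat under pressure load or low thyroid hormone. Myl2 and Myl3 encode the ventricular regulatory and essential light chains, while Myl7 and Myl4 encode their atrial counterparts, which the fetal ventricle also uses.

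Myh6 lies at chr15:32388102-32413663 and Myh7 at chr15:32416525-32439851 of the RefSeq assembly GRCr8, both on the minus strand with 2861 bases between them. Each holds a microRNA, and a further one lies within Myh7b, a slow myosin gene on chromosome 3. These sequences are shown because they are part of the same loci as the heavy chains, with the seed (bases 2 to 8) in capitals. The array did not measure them. miR-208a and miR-208b share 1 seed, and the seed of miR-499 has 6 of its 7 bases in common with it.
rno-miR-208a-3p, within Myh6: aUAAGACGagcaaaaagc
rno-miR-208b-3p, within Myh7: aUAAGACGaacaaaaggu
rno-miR-499-5p, within Myh7b: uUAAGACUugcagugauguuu

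Promoter windows from RefSeq, 250 bases before to 50 after a gene's start, were at hand for 6 of the 7 genes, Myl2 being the exception. They were searched on both strands for the CArG box, the site of serum response factor, for CATTCC, the MCAT element that TEAD factors bind, and for TATAAA. A CArG box stood in the windows of Acta1 and Myl3 alone among the 6, and in 1.637% of all 33469 windows. CATTCC stood in those of Acta1, Myl3 and Myh6 (14.189% of all windows), and TATAAA in those of Acta1 and Myl4 (14.222%). None of the 6 held a MEF2 site (3.287%) or GATAAG (7.051%), and all 6 held an E-box, CANNTG (72.1%). The 250 bases before the start site of the window are printed for Acta1 and Myl3, which share both muscle elements and whose signals lay in opposite directions on the L-NAME arrays, with CArG box, CATTCC (on either strand) and TATAAA in capitals, none of which overlap. The Myl3 window has a start site inside the gene as annotated, which begins at 119617077, so that the end of its printed stretch lies within the gene. A match of letters is not a measured binding site.
Acta1, minus strand of chr19:68784195-68784444, GRCr8: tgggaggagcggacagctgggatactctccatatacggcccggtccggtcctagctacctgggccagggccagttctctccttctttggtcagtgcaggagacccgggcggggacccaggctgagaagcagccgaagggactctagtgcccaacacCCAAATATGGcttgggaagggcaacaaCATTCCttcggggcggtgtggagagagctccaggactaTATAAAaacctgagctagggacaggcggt
Myl3, plus strand of chr8:119616844-119617093, GRCr8: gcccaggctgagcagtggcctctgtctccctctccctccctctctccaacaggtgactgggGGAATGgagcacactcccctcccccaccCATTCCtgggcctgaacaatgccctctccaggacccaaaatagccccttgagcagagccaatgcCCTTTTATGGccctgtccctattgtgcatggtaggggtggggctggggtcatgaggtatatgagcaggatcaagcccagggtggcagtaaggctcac

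Values are MAS5 signals, linear intensities that the authors scaled to a common level on each array, and changes are differences of mean log2 signal with their standard error. All 8 listed cardiomyocyte markers had a probe set. Their summed signal was 21074 to 27933 on Met-fed arrays, 16839 to 19548 on L-NAME arrays and 24181 to 26744 on control arrays. That of 2 ventricle markers was 570 to 644 on Met-fed, 496 to 528 on L-NAME and 526 to 693 on control arrays. The sum hides opposite directions. In L-NAME against control hearts 1 of the 2 rose and 1 fell (limma, adjusted p under 0.05), beside 28.7% and 17% of all probe sets. With arrays centred on their median 0 rose and 1 fell. The L-NAME arrays stood apart from the others as a set. Their median signal was 34.2 to 36.9, against 25.8 to 29.2 on Met-fed and 25.7 to 27.2 on control arrays. The brightest 5% of probe sets were dimmer there, with a median log2 signal of 10.24 to 10.35, against 10.42 to 10.59 on Met-fed and 10.54 to 10.59 on control arrays. The log2 ratio of 3′ to 5′ signal of beta-actin, which reads RNA quality and labelling, was 2.32 to 2.70 in L-NAME, 3.32 to 3.71 in Met-fed and 3.31 to 3.67 in control. The labels name no batch, so a batch of the L-NAME arrays cannot be told apart from the treatment. Precision is limited by how few arrays each group has.

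By the brighter probe set of each gene, the alpha heavy chain was lower relative to the beta chain in Met-fed than in control hearts. The balance, log2 Myh6 minus log2 Myh7 on the same array, was 0.05, 0.52, 0.72 and 0.72 in the 4 Met-fed hearts, and 1.14, 0.78, 0.97, 1.01 and 0.75 in the 5 control hearts. Every Met-fed heart lay below every control heart, though the highest Met-fed and lowest control values were close. The difference was -0.43 ± 0.17, a ratio of Myh6 to Myh7 of 0.743 times that of control. It passed the exact permutation test (2-sided, p = 0.00794, the smallest that 4 arrays against 5 allow, and 0.0238 after Benjamini-Hochberg adjustment over 9 tests of balance).

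Neither heavy chain passed on its own. Myh6 signals were 3116, 4579, 4683 and 4051 in Met-fed hearts, against 4524, 4746, 4673, 5004 and 5055 in control hearts. Met-fed heart 1 was far below all others, and Met-fed hearts 2 and 3 lay within the control range. The Myh6 change was -0.24 ± 0.10 (limma, adjusted p = 0.402). Myh7 signals were 3003, 3198, 2836 and 2451 in Met-fed hearts, against 2050, 2757, 2379, 2481 and 2997 in control hearts, with a change of 0.19 ± 0.10 (limma, adjusted p = 0.547). The highest 2 were Met-fed hearts and the groups overlapped.

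Met-fed heart 1 weighed on the balance. Without it the difference from control was -0.28 (exact permutation test, 2-sided, p = 0.0357). The brightest 5% of probe sets were also dimmer on Met-fed arrays 1 and 4, at 10.42 and 10.47, than on every control array. Met-fed arrays 2 and 3, at 10.58 and 10.59, lay at the control level and had balances of 0.52 and 0.72, below every control. With those 2 arrays alone against the 5 controls, a choice made after the data were seen, the difference was -0.31 (exact p = 0.0952, 2-sided permutation test). Quantile normalization gave -0.37 (exact p = 0.0635).

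**Figure D1:**
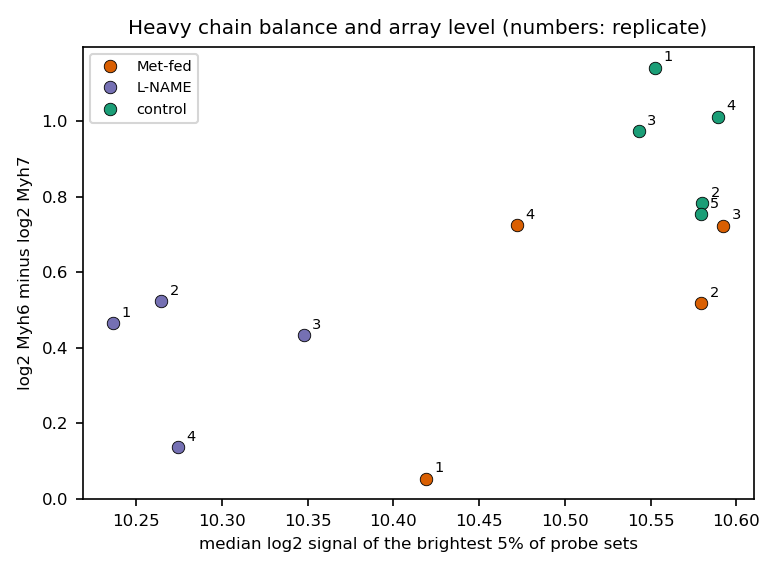
Balance of the heavy chains, log2 Myh6 minus log2 Myh7 (vertical axis), against the median log2 signal of the brightest 5% of probe sets (horizontal axis), 1 point per array with its replicate number, in Met-fed, L-NAME and control hearts. Met-fed arrays 2 and 3 sit at the control level of brightness and below the controls in balance, and the L-NAME arrays are lower on both axes than every control array.

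In L-NAME hearts the balance of the brighter probe sets was also lower than in control hearts, at 0.46, 0.52, 0.43 and 0.14, against 0.75 to 1.14. All 4 L-NAME hearts were below all 5 control hearts, by -0.54 ± 0.11, a ratio 0.686 times that of control (exact permutation test, 2-sided, p = 0.00794, adjusted p = 0.0238 over the 9 tests). The means were 0.50 ± 0.32 in Met-fed, 0.39 ± 0.17 in L-NAME and 0.93 ± 0.16 in control hearts (SD, n = 4, 4 and 5). L-NAME and Met-fed hearts, which were compared with the same 5 controls, differed by -0.12 ± 0.18 (exact permutation test, 2-sided, p = 0.543), and this does not show that the balances were alike. The difference is taken within an array, so a constant scaling factor of that array cancels in it. A shift that depends on signal level does not cancel. In L-NAME against control hearts the median change was 0.22 over all probe sets and -0.36 over the brightest 5%.

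The balance rested on the brighter probe set of each heavy chain. When both probe sets of each gene were averaged, the difference from control was -0.41 in Met-fed hearts (exact p = 0.333, permutation test) and -0.45 in L-NAME hearts (exact p = 0.0952, permutation test). Neither passed. In L-NAME hearts the direction depended on which probe sets were paired, a comparison added after the data were seen. The dimmer Myh6 probe set with the brighter Myh7 one gave -0.999, -0.85, -0.98 and -1.58 in L-NAME hearts, against -2.89 to -2.0 in control hearts, a difference of 1.26 in the opposite direction with all 4 L-NAME hearts above all controls (exact permutation test, 2-sided, p = 0.00794). The brighter Myh6 with the dimmer Myh7 probe set gave -2.16 (exact permutation p = 0.00794), and both dimmer ones gave -0.36 (exact permutation p = 0.429). In Met-fed hearts the 3 other pairings gave differences of -0.28, -0.53 and -0.38 from control, none of which passed (exact permutation p = 0.492, 0.294 and 0.524).

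**Figure D2:**
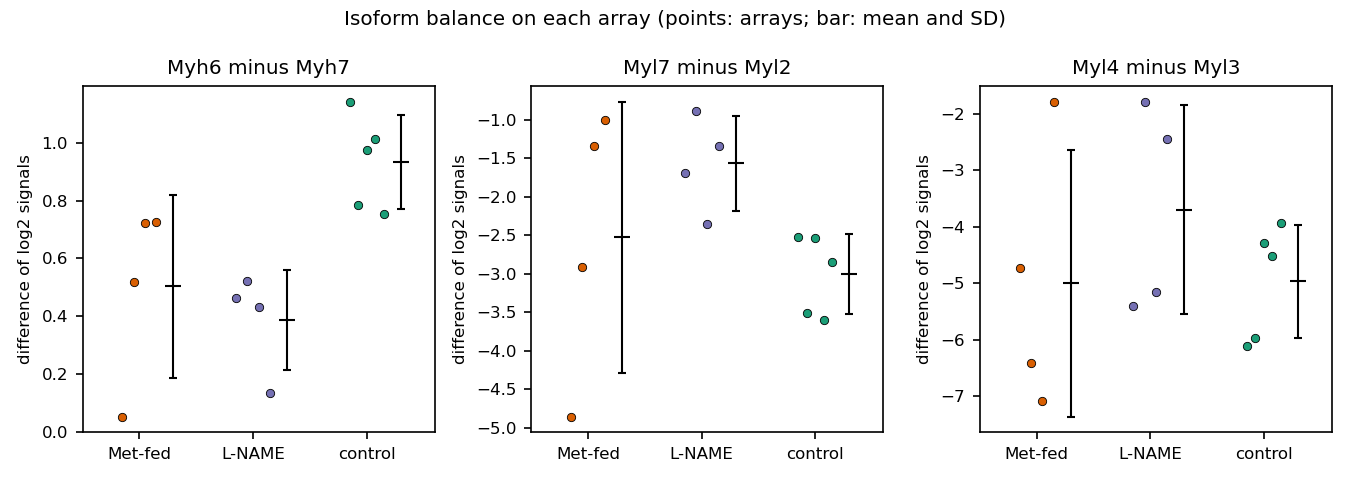
Isoform balances on each array as differences of log2 signals (vertical axes), for the heavy chains (Myh6 minus Myh7), the regulatory light chains (Myl7 minus Myl2) and the essential light chains (Myl4 minus Myl3). Points are arrays and bars give mean and SD of Met-fed (n = 4), L-NAME (n = 4) and control (n = 5) hearts, and the heavy chain balance of every Met-fed and every L-NAME heart lies below 0.75, the lowest control value.

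On their own, the bright ventricular genes were lower in L-NAME hearts. Myh6 fell in L-NAME hearts, with signals of 2658, 2971, 3049 and 2602, against 4524 to 5055 in control hearts, a change of -0.77 ± 0.10 or 1.70-fold lower (limma, adjusted p = 9.04e-06). Myl3 fell as well, with 2171, 2251, 2569 and 2460 in L-NAME hearts, against 4004, 3634, 3435, 3533 and 3812 in control hearts (-0.64 ± 0.10, limma, adjusted p = 4.53e-05). Neither gene had an L-NAME heart within the control range.

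Myl2 gave 2653, 2912, 3170 and 3021 in L-NAME hearts, against 4269, 3828, 3797, 3901 and 3923 in control hearts, a fall of 1.34-fold (-0.43 ± 0.09, limma, adjusted p = 0.000777). Myh7 gave 1926, 2067, 2260 and 2368 in L-NAME hearts, against 2050 to 2997 in control hearts, and the groups overlapped (-0.23 ± 0.10, limma, adjusted p = 0.0909). Control heart 1 held the lowest control value of Myh7, and without it the change was -0.30 (adjusted p = 0.0198, limma). In these bulk samples, fewer cardiomyocytes and less of an mRNA per cardiomyocyte cannot be told apart.

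Acta1, which encodes skeletal alpha-actin of the thin filament, went the other way. It rose in L-NAME hearts, with 1304, 1129, 1069 and 1175, against 743, 634, 895, 668 and 824 in control hearts, a change of 0.64 ± 0.14 or 1.56-fold (limma, adjusted p = 0.00156). Every L-NAME heart was above every control heart. In Met-fed hearts Acta1 signals were 773, 1221, 777 and 1211, so that hearts 2 and 4 lay above the control range and hearts 1 and 3 within it (0.38 ± 0.14 against control, limma, adjusted p = 0.377).

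**Figure D3:**
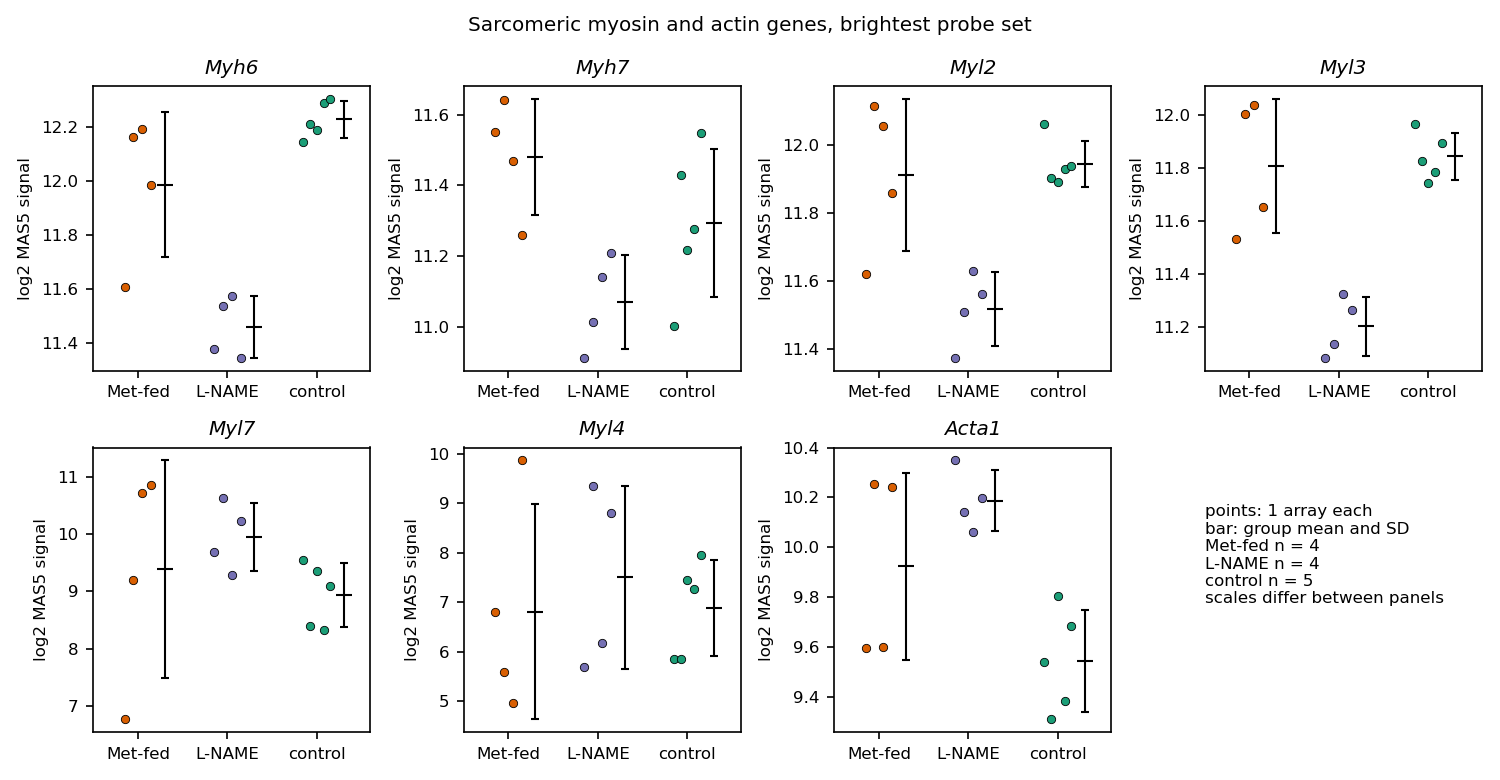
Log2 MAS5 signal (vertical axes, which differ between panels) of the brightest probe set of each gene, 1 point per array with group mean and SD, in Met-fed (n = 4), L-NAME (n = 4) and control (n = 5) hearts. Myh6, Myl2 and Myl3 are lower and Acta1 is higher in all L-NAME hearts than in any control heart, while Myl7 and Myl4 spread widely within groups.

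These changes have to be read against the whole array. In L-NAME against control hearts, 45.7% of all probe sets passed the adjusted p, 28.7% of all as higher and 17% as lower. Of the 10 member probe sets 7 passed, 4 as higher and 3 as lower, and 7 of 10 had groups without overlap (40.3% of all probe sets). The median change was -0.23 over the 7 genes, 0.22 over all probe sets and -0.36 over the 1553 brightest, of which 64.8% passed as lower and 8.76% as higher. Myh7, Myl3, Myh6 and Myl2 lay at or above the 99.4 percentile of signal.

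Other scalings moved these single genes. With arrays centred on the brightest 5%, Myh6 was lower in L-NAME than in control hearts by -0.48 and Myl3 by -0.35 (limma, adjusted p = 4.59e-05 and 0.000659). By that centring Myl2 changed by -0.14 (adjusted p = 0.0901, limma), and Myh7 turned to 0.06. Myh6 and Myl3, at the 99.98 and 99.84 percentile of signal, are brighter than most of that 5%. The highest signal on an array was 3093 to 3547 in L-NAME, 3971 to 5501 in Met-fed and 4782 to 5531 in control hearts. Whether these genes fell beyond a shift at the top of the signal range was not tested. With arrays centred on their median the falls were deeper, at -1.19 for Myh6, -1.07 for Myl3 and -0.85 for Myl2, and Myh7 passed as lower as well (-0.65, limma, adjusted p = 0.000386). Acta1 was higher by 0.93 with arrays centred on the brightest 5%, by 0.84 after quantile normalization and by 0.22 with arrays centred on their median, where it no longer passed (limma, adjusted p = 0.261). Quantile normalization brought Myh6 to -0.18 (limma, adjusted p = 0.0168) and Myl3 to -0.12 (limma, adjusted p = 0.0698), and turned Myl2 to 0.12 and Myh7 to 0.23.

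Dimmer probe sets of the same genes ran against the bright ones. The dimmer Myh6 probe set gave 964, 1146, 1148 and 792 in L-NAME hearts, against 511, 526, 468, 554 and 404 in control hearts, and rose by 1.03 ± 0.21 (limma, adjusted p = 0.000772). The dimmer Myh7 probe set gave 130, 126, 179 and 162 in L-NAME hearts, against 27.8, 61.3, 65.3, 61.6 and 83.1 in control hearts, and rose by 1.39 ± 0.31 (limma, adjusted p = 0.00164). As deposited, the probe sets of Myh6, Myh7 and Myl2 disagreed in direction, though the fall of the brighter Myh7 one did not pass. After quantile normalization the brighter Myh7 and Myl2 probe sets turned to 0.23 and 0.12, the direction of the dimmer ones. No single gene-level direction holds for Myh6, Myh7 or Myl2 over all probes and scalings.

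The dimmer Myl2 probe set rose by 0.69 ± 0.18 in L-NAME hearts, with 482, 279, 265 and 239, against 169 to 210 in control hearts (limma, adjusted p = 0.0042). With arrays centred on their median this came to 0.27 and did not pass (limma, adjusted p = 0.272), while the dimmer Myh6 and Myh7 probe sets, at 0.61 and 0.96, still did (limma, adjusted p = 0.0379 and 0.0226). In Met-fed hearts it gave 244, 310, 336 and 223, above every control heart, with a change of 0.54 ± 0.18 that did not pass (limma, adjusted p = 0.326). It was the only member probe set without overlap between Met-fed and control hearts, where 2.89% of all probe sets were so. Neither which transcript part nor which near copy these probes read was tested. Another 2 probe sets are annotated with both Myh7 and Myh6 and were not counted as members. The brighter of them gave 1639 to 2036 in L-NAME hearts, against 2583 to 3103 in control hearts.

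**Figure D4:**
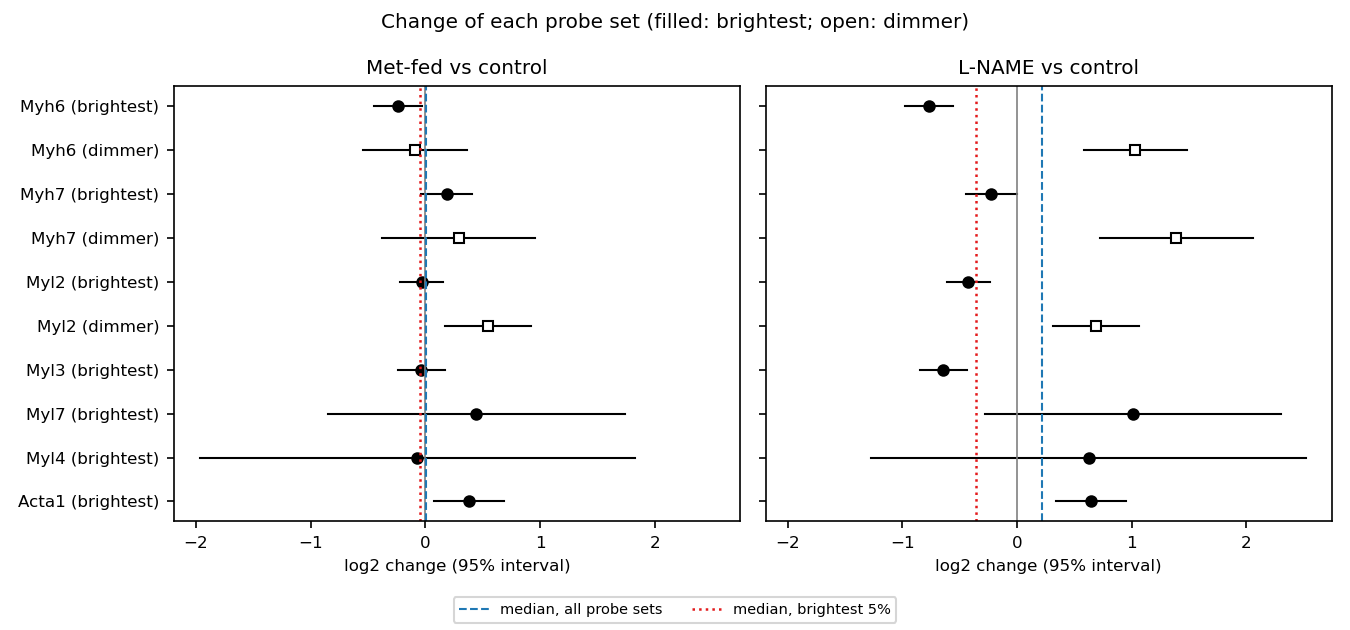
Log2 change with 95% interval (horizontal axis) of each of the 10 member probe sets in Met-fed (left) and L-NAME (right) against control hearts, filled for the brightest and open for the dimmer probe set of a gene. In L-NAME hearts the bright Myl2 probe set lies beside the median of the brightest 5% (-0.36), and the intervals of bright Myh6 and Myl3 lie below it. Bright Myh6 and Myl3 have more signal than most of that 5%. The dimmer probe sets of Myh6, Myh7 and Myl2 lie above the median of all probe sets (0.22).

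In Met-fed against control hearts no member passed the adjusted p, as for all probe sets (0%, limma). At an unadjusted p under 0.05, 3 of 10 member probe sets passed, against 10.7% of all. These were Myh6, Acta1 and the dimmer Myl2 probe set. The ventricular light chains stayed near the control level on average, with changes of -0.03 ± 0.09 for Myl2 and -0.04 ± 0.10 for Myl3 (limma, 95% intervals of -0.22 to 0.15 and -0.24 to 0.17).

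Of the atrial light chains, Myl4 varied more between hearts than between group means, and so did Myl7 in Met-fed hearts. The SD of log2 Myl7 was 1.90 in Met-fed, 0.59 in L-NAME and 0.55 in control hearts. Myl7 gave 109, 590, 1679 and 1850 in Met-fed hearts, 820, 1574, 622 and 1193 in L-NAME hearts, and 746, 336, 653, 321 and 543 in control hearts. Met-fed hearts held both the lowest and the highest values. Myl4 gave 112, 48.4, 31.1 and 930 in Met-fed hearts, 51.3, 651, 72.0 and 448 in L-NAME hearts, and 57.6, 58.0, 175, 154 and 249 in control hearts.

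A few hearts, Met-fed heart 4 and L-NAME hearts 2 and 4, thus carried most of the Myl4 signal. Neither gene passed in any comparison. The changes against control were 0.45 ± 0.61 for Myl7 and -0.07 ± 0.89 for Myl4 in Met-fed hearts, and 1.01 ± 0.61 and 0.62 ± 0.89 in L-NAME hearts (limma, adjusted p from 0.195 to 0.988). Without Met-fed array 1, whose Myl7 value widened the common spread, the adjusted p of Myl7 in L-NAME against control hearts was 0.0261 (limma), and with those groups fitted alone it was 0.0105 (limma).

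The regulatory light chain balance, Myl7 minus Myl2, was higher in all 4 L-NAME hearts than in all 5 control hearts. It ran between -2.35 and -0.89 in L-NAME hearts, between -4.85 and -1.0 in Met-fed hearts and between -3.60 and -2.52 in control hearts. The difference of L-NAME from control was 1.44 ± 0.39 (exact permutation test, 2-sided, p = 0.00794, adjusted p = 0.0238 over the 9 tests). Met-fed hearts differed from control by 0.48 ± 0.91 (exact permutation test, 2-sided, p = 0.603). With the mean of both Myl2 probe sets the L-NAME difference was 0.88 (exact permutation p = 0.111). The essential light chain balance, Myl4 minus Myl3, differed from control by -0.03 ± 1.26 in Met-fed and by 1.27 ± 1.03 in L-NAME hearts (exact permutation test, 2-sided, p = 0.992 and 0.246).

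Atrial markers were read beside the atrial light chains. The summed signal of 8 measured markers was 4513 to 7955 in Met-fed, 3844 to 5394 in L-NAME and 4465 to 5567 in control hearts. Sln, the atrial sarcolipin that inhibits the calcium pump, had its highest values of 1671 in Met-fed heart 4, 481 in L-NAME heart 2, 325 in control heart 5 and 293 in L-NAME heart 4, the same 4 hearts in which Myl4 was highest. Nppa, the natriuretic peptide abundant in atria, was also highest in Met-fed heart 4, at 2183. Its next highest value was 1460 in control heart 1, where Sln was 53.7 and Myl4 57.6. The other markers did not all follow in Met-fed heart 4. Nr2f2 and Dkk3 lay above every control heart, at 1046 and 1176, and Gja5 and Pam within the control range, at 99.5 and 1630. Kcna5 lay below every control heart, at 68.0 against 92.6 to 188, and Kcnj3 was 80.7 against 80.1 to 117. Met-fed heart 3 had Myl7 at 1679 with Sln at 36.2 and Myl4 at 31.1. The part of atrial tissue in these values was not tested. In L-NAME against control hearts 1 of the 8 markers rose (Dkk3, 0.52) and 2 fell (Kcna5 by 1.10 and Pam by 0.27, all limma), and with arrays centred on their median 0 rose and 4 fell.

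Between L-NAME and Met-fed hearts, 6 of 10 member probe sets passed the adjusted p, against 40.3% of all probe sets, 2 as higher (25.4% of all) and 4 as lower (14.9% of all). The bright probe sets of all 4 ventricular genes were lower in L-NAME hearts, by -0.61 ± 0.10 for Myl3, -0.53 ± 0.10 for Myh6, -0.41 ± 0.11 for Myh7 and -0.39 ± 0.09 for Myl2 (limma, adjusted p from 0.00019 to 0.00682). The 2 that were higher were the dimmer probe sets of Myh6, by 1.12, and Myh7, by 1.10. After quantile normalization Myl3 alone of the 4 bright genes still passed (-0.15, limma, adjusted p = 0.0435), and Acta1, at 0.26 ± 0.15 without it, came to 0.47 (limma, adjusted p = 0.023).

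Over the 13 arrays, deviations from the group mean were compared for 4 pairs of measures. Myh6 and Myh7 had r = 0.15 and rho = 0.28, and 0.46 was left as r without the 2 arrays farthest from the median of Myh6. Myh7 and Acta1 had r = -0.18 and rho = -0.11 (r = -0.37 without 2), Myl4 and Myl7 r = 0.28 and rho = 0.33 (r = 0.26 without 2), and Myl7 and the mean atrial marker level r = 0.40 and rho = 0.40 (r = 0.25 without 2). None passed a permutation test within groups (p from 0.359 to 0.658 for r and from 0.265 to 0.762 for rho, at least 0.498 after adjustment over 4). The arrays of a group share their treatment, and within-group numbers are too small to test.

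The other thick filament genes were read from lists, each gene by its brightest probe set, and no gene of any list passed in Met-fed hearts. The counts for L-NAME against control hearts stand beside the 28.7% of all probe sets called higher and 17% called lower, and they depend on scaling. Of the other sarcomeric myosins, 7 of 10 were measured, and in L-NAME hearts only the probe set named for Myh1, a fast skeletal heavy chain, fell (-0.83 ± 0.10, limma, adjusted p = 4.04e-06). Its mean log2 signal was 11.00 in L-NAME and 11.83 in control hearts, while the fast chains Myh2 and Myh4 read 1.82 and -0.69 in L-NAME and 1.47 and 0.05 in control hearts. Of 9 measured thick filament partners 2 fell, Mybpc3, the cardiac myosin-binding protein C (-0.71), and Obsl1 (-1.52), and none rose (4 fell with arrays centred on their median). The cardiomyocyte markers fell in 7 of 8 cases (8 with that centring), with a median of -0.57. Among them were phospholamban Pln, which inhibits the calcium pump (-0.63), and alpha-actinin Actn2 (-0.72). These markers are bright, with a mean log2 signal of 11.52 to 11.65 on control arrays. Of the brightest 5% of probe sets 64.8% passed as lower, with a median change of -0.36.

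Of 7 measured genes that fold or degrade myosin, 2 rose and 3 fell in L-NAME hearts, and 1 rose and 4 fell with arrays centred on their median. Fbxo32, the ubiquitin ligase atrogin-1, rose by 1.76 ± 0.26 and Trim63, the ligase MuRF1, by 0.40 ± 0.14, while the methyltransferases Smyd1 and Smyd2 fell by 0.71 and 0.53 and the myosin chaperone Unc45a by 0.39. Of 9 genes of light chain phosphorylation, 2 rose and 4 fell (1 and 4 with that centring). Mylk3, the cardiac kinase of the regulatory light chain, fell by 0.45 and Mylk by 0.26, and the phosphatase subunit Ppp1r12c and the kinase Rock2 rose by 0.77 and 0.54.

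Among 7 measured smooth muscle and nonmuscle myosins 3 rose and 3 fell, and 1 rose and 4 fell with arrays centred on their median. The light chain Myl9 rose by 0.92 and Myh9 by 0.38, and Myh14 fell by 0.99 and Myl12a by 0.45. Of 3 other actins 2 rose, smooth muscle Acta2 (1.82 ± 0.33) and cytoplasmic Actg1 (0.60 ± 0.10), both without overlap between groups, and 1 rose with that centring. Actc1, the cardiac actin, was read only by 5 probe sets shared with Acta2, and the brightest of these fell (-0.53, limma, adjusted p = 0.000281). The others changed by 0.11, 0.24, 0.02 and 0.11 and did not pass (limma, adjusted p from 0.275 to 0.977). No single direction of Actc1 can be read from them. Signals of smooth muscle markers summed to 2088 to 2740 in L-NAME and 2319 to 2540 in control hearts. The 6 markers went both ways, 2 rising and 2 falling with a median change of 0.33 (2 and 3 with that centring).

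Regulators known to act on the heavy chain genes were also read in L-NAME hearts. Of 12 genes of thyroid hormone response, which in rat heart activates Myh6 and represses Myh7, 3 rose and 6 fell. The receptors Thra and Thrb fell by 0.75 and 0.77, and the coactivators Med1 and Ncoa1 rose by 0.85 and 0.47. In Met-fed hearts Thrb read -0.33 ± 0.12 and Med1 0.26 ± 0.10 without passing. Of the 12, 4 had an unadjusted p under 0.05 there (limma), against 10.7% of all probe sets, and none passed after adjustment. Of 19 cardiac transcription factors 6 rose and 9 fell. Nkx2-5 fell by 1.80, Hand2 by 1.31, Tead3 by 1.33 and Mef2d by 1.07, and Purb, which represses Myh6, rose by 0.62, Hopx by 0.96 and Sox6 by 1.30. Centring arrays on their median left fewer rises, 4 of 19 factors and 2 of 12 thyroid genes, and 10 and 6 falls.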

How the data were processed

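Left ventricle was measured on 13 arrays. Each array was taken as 1 rat, which the labels do not state. The authors computed the deposited intensity values with MAS5 (version not given in the sources used here) on Affymetrix whole-genome rat arrays. The values are linear, and no further normalization was applied. The trimmed mean of an array, which leaves out its brightest and dimmest signals, was 150.03 to 150.05 on every array. Genes are compared relative to it. The methods name 4 control arrays, and all 5 so labelled were used.

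Control probe sets (57 of 31099) were left out, and log2 signals of 31042 went into limma 3.58.1 (R 4.3.3), with 1 coefficient per group, a variance trend and Benjamini-Hochberg adjustment (threshold 0.05). Of these probe sets 20826 have 1 symbol, 436 several and 9780 none in the annotation used. Nothing in the labels says more than that the arrays are separate samples. Isoform balances were tested by exact permutation over all splits. The planned balance of Acta1 and Actc1 could not be formed, since no probe set names Actc1 alone, which left 9 tests in place of 12. The members and lists were chosen with earlier results of these data known. All member probe sets are named, and from each list up to 4 genes of smallest p per comparison. Beyond that rule Thra, Trim63, Purb, Hopx, Sox6, Sln, Nppa, Myh2 and Myh4 were chosen after their values were seen. All 8 measured atrial markers are given for Met-fed heart 4. Scripts were tested on simulated data. Sequences were copied from RefSeq tables of GRCr8, with 1 promoter window per gene. Alternatives were quantile normalization, centring on the median or on the brightest 5%, an offset of 16 or 50, leaving out probe sets dimmer than the median (29.2), no variance trend, the compared groups alone, the methods' t-test, a replicate block, all probe sets averaged, and each array left out. Other pairings of the heavy chain probe sets were added after the data were seen. Python 3.11.15, scipy 1.17.1 and matplotlib 3.10.9 were used.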

Additional observations from a re-analysis of the deposited data

Results flagged for a closer look

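In 39 groups of log2 signals of the member probe sets and balances, 2 held a single array far from its group by Dixon's test, which by chance marks about 1 group in 20. The dimmer Myh7 probe set read 4.80 on control array 1, against 5.94 to 6.38 on the other control arrays. The Myl2 probe set of highest signal read 12.06 on the same array, against 11.89 to 11.94 on the others.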

How the results depend on the processing

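With the replicate number as a block, 0, 7 and 6 of the 10 member probe sets passed, for Met-fed and then L-NAME hearts against control and for L-NAME against Met-fed hearts, and no call on a gene changed. Only the uncalled Myl4 change in Met-fed hearts turned, to 0.20. Number 5 belongs to a control array alone, so the block takes that array out of the comparisons with control. Leaving out control array 5 gave the same 0.20. Arrays of 1 number did not deviate together (r from -0.21 to 0.24 over 12 pairs, 3 best with their own number). Counts of called members stayed at 0 in Met-fed hearts under every alternative, and lay between 5 (quantile normalization) and 8 in L-NAME against control hearts and between 4 (quantile normalization, the methods' t-test) and 6 against Met-fed hearts.

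The heavy chain balance in Met-fed hearts no longer passed after quantile normalization (-0.37), with all probe sets averaged (-0.41) and without Met-fed arrays 1 and 4 (-0.31, chosen after the data were seen). In L-NAME hearts it no longer passed with all probe sets averaged (-0.45), nor did Myl7 minus Myl2 (0.88). Other pairings of the heavy chain probe sets were tried after the data were seen. The dimmer Myh6 with the brighter Myh7 probe set reversed the balance in L-NAME against control (1.26) and against Met-fed hearts (1.54), and gave -0.28 in Met-fed against control hearts. The brighter Myh6 with the dimmer Myh7 one gave -2.16, -1.63 (which passed) and -0.53, and both dimmer ones gave -0.36, 0.025 and -0.38. The direction in L-NAME hearts thus depends on the probe sets chosen. With each array left out the balance of the brighter probe sets was -0.50 to -0.28 in Met-fed and -0.59 to -0.46 in L-NAME hearts. Balances that had not passed turned sign in Met-fed hearts. Myl4 minus Myl3 came to 0.059 and 0.15 with offsets of 16 and 50, and ran from -1.10 to 0.66 with an array left out, where Myl7 minus Myl2 ran from -0.029 to 1.25.

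Uncalled single genes turned in Met-fed against control hearts. Quantile normalization gave 0.034 for Myl2 and 0.028 for Myl3, centring on the brightest 5% gave 0.020 and 0.018, and leaving out Met-fed arrays 1 and 4 gave 0.14 and 0.18. Offsets of 16 and 50 gave 0.024 and 0.12 for Myl4. With an array left out, Myl2 ran from -0.10 to 0.064, Myl3 from -0.11 to 0.056, Myl4 from -1.09 to 0.54 and Myl7 from -0.045 to 1.32. In L-NAME against control hearts median centring made Myh7 a call (-0.65) and ended that of the dimmer Myl2 probe set (0.27) and of Acta1 (0.22), quantile normalization turned Myh7 to 0.23 and Myl2 to 0.12, and centring on the brightest 5% turned Myh7 to 0.063. In L-NAME against Met-fed hearts quantile normalization turned Myl2 to 0.087, median centring turned Acta1 to -0.10, and Myl7 ran from -0.31 to 1.06 with an array left out and was -0.0092 without Met-fed arrays 1 and 4. The cause was not tested. Of all probe sets, 8908 were called higher and 5275 lower in L-NAME against control hearts, 6823 and 6796 after quantile normalization, 4952 and 9232 with median centring, and 12293 and 3066 with centring on the brightest 5%. The median change of all probe sets was then 0.22, -0.01, -0.21 and 0.51.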

Other observations

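The genes whose deviations from the group means over the 13 arrays were most like those of a member, among 11926 probe sets with 1 symbol and at least the median signal, were Sh3kbp1 (r = 0.96), Mpc1 (0.96) and Mff (0.96) for Myh6, and Prkacb (0.89), Casc3 (0.87) and Pdcd4 (0.84) for Myh7. For Myl7 they were Ift122 (0.93), Lrrc8a (0.91) and Ercc4 (0.90), and for Acta1 Tmem61 (0.87), Cx3cl1 (0.87) and Fgf9 (0.85). These are the highest values of a ranking over all those probe sets, and the arrays share their scaling. Met-fed heart 1 and control heart 2 were low in 1 of the probe sets annotated with both Myh7 and Myh6, at 385 in Met-fed heart 1, against 1390 to 2710 in the other Met-fed hearts, and at 496 in control heart 2, against 1746 to 2687 in the other control hearts.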
